A study of Mus musculus with 9 samples.

Results

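Complement is a cascade of serum and tissue proteins that marks debris, synapses and microbes for removal. Its classical arm opens with C1q, a large protein built from the chains encoded by C1qa, C1qb and C1qc. Cleavage of C3 and C5 then releases the peptides C3a and C5a, which act on the receptors encoded by C3ar1 and C5ar1, while cleaved C3 on a surface is bound by complement receptor 3, the pair of CD11b (Itgam) and CD18 (Itgb2). Microglia, the resident macrophages of the retina, are a main local source of C1q and carry these receptors.

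The genes described here are 7 complement components and receptors, C1qa, C1qb, C1qc, C3ar1, C5ar1, C3 and Itgam, taken by symbol from the 27998 genes listed. Their RNA was counted in CD45+ CD11b+ cells sorted from retinas. All mice were female and Arr1-/-, a genotype without visual arrestin in which light sets off photoreceptor degeneration. The mice were bred in constant darkness, adult, and sampled at day 0 (kept dark) or after 7 or 20 days of constant room light of about 200 lux. Every group carried the Arr1-/- genotype, so day 0 is an unlit knockout and not a wild-type retina. Each day had 3 libraries (10x Genomics 3' v2), and a figure legend of the study gives 4 mice for each time point. How the mice were divided among libraries is not given in the sources used here, so p-values measure the spread between libraries, which may be technical.

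The 9 libraries shared cell barcodes. Their 5022 entries came down to 1365 different barcodes, of which 612 stood in several libraries and 270 in all 9. Unique molecular identifiers (UMIs) each mark 1 captured RNA molecule, and a barcode was kept only where its UMI total was highest. Values from the counts as deposited are given beside several results. In them each shared barcode counts in every library that lists it, and the cells were clustered anew, which left out a Müller-led cluster of 118 cells. After quality control and removal of a 74-cell cluster led by rod genes, 777 cells were retained (day 0, 267 cells, day 7, 300, and day 20, 210), with 32723 to 286261 UMIs per library. Replicate 3 of days 7 and 20 was the shallowest, and they held 14 and 26 of the 65 cells of a cluster led by Müller glia genes; 2 of its 10 leading genes were listed glial genes, short of the 3 at which a cluster was left out, and values without it are given where it matters. The 14 listed microglia markers were all detected and summed to 17023 to 21449 CPM (counts per 1000000 UMIs) in the day 0 libraries, 5042 to 6929 at day 7 and 11879 to 15128 at day 20, while Ptprc (CD45) had 174 UMIs in all. A monocyte and macrophage list, with Cd163 and Vcan at 0 and the other 12 of its 14 genes detected, summed to 142 to 234 CPM, 954 to 1422 and 478 to 970 at the same days. The Müller glia list (9 of 9 genes detected) summed to 850 to 3670, 398 to 4737 and 515 to 4188 CPM, the rod list (22 of 22) to 1591 to 9645, 800 to 2414 and 471 to 1931, and the lymphocyte list (19 of 19 in the files) to 30.6 to 249, 135 to 950 and 132 to 358. By library, a lens list summed to 330, 8639 and 597 CPM at day 0, 8506, 617 and 61.1 at day 7, and 74.3, 189 and 132 at day 20. The microglia levels did not overlap between any 2 days, the monocyte and macrophage levels of both lit days lay above day 0, the Müller levels overlapped, and the part of these lists in the results below was not tested. Sag, the arrestin gene, had 7 UMIs, which checks nothing, since a 3' tag may lie outside the disrupted stretch. Levels below are CPM summed over the retained cells of a library. In such sums fewer cells with a transcript and less RNA per cell cannot be told apart. Where libraries of different days are said to lie apart, how many of all genes separate in this way was not counted.

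The C1q genes lie side by side on the minus strand of chromosome 4 (GRCm38), C1qb at 136880129 to 136886187, C1qc at 136889804 to 136893065 and C1qa at 136895917 to 136898803, with 3616 and 2851 bases between neighbours and 18675 bases in all. The bases just upstream of C1qb and C1qc are shown because these genes sit together and their RNA moved together across libraries (below); sequences and starts are those of RefSeq (GRCm38.p6), which matched 6 of the 7 genes, not C1qa. They run 5′ to 3′ on the minus strand, and the C1qc stretch ends where the longer GENCODE transcript begins. Capitals mark AGGAAGT, a sequence of the kind bound by ETS family factors, read here on the opposite strand as ACTTCCT, 53 bases before the RefSeq start of C1qb and 195 before that of C1qc.
C1qb, chr4:136886201-136886450: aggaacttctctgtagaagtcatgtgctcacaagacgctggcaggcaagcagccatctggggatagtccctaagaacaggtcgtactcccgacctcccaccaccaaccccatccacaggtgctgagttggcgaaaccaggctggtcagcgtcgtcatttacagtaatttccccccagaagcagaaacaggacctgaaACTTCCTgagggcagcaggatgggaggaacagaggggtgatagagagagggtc
C1qc, chr4:136893066-136893164: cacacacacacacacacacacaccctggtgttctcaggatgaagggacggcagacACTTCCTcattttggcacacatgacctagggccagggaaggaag
Searched on both strands over the 250 bases before the RefSeq start, AGGAAGT was present at C1qb, C1qc and C5ar1, 3 of the 6 windows, and in 7.69% of 32851 windows of this length. The AP-1 sequence TGANTCA was found at C3ar1 (6.75% of all windows) and the C/EBP sequence TTGCNNAA at C3 (9.56% of all windows). A match describes letters and not a bound site.

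C1q was the dominant complement RNA of these cells at every day. Over 636 cells with at least 500 UMIs, 535 (84.1%) had a UMI of all 3 chains, and 9 cells (1.42%) had none. Summed over the chains, C1q took a median of 16.8 of every 1000 UMIs in a cell, and at most 60.6. In the 74 rod-led cells the levels were 708 CPM for C1qa, 958 for C1qb and 531 for C1qc. These were 10.8%, 13.9% and 11.2% of those in the retained cells, and were taken as the background of these measurements. The rod-led cells came through the same sort and doublets were not called, so whether some include a myeloid cell was not tested.

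C1qa encodes the A chain. Its CPM was 7286, 8167 and 6468 in replicates 1 to 3 of day 0, 4580, 4568 and 5134 at day 7, and 6473, 8346 and 8375 at day 20. The 3 day 7 libraries were the lowest of the 9, and days 0 and 20 overlapped. C1qb, the B chain, had 7733, 8058 and 7776 CPM at day 0, 4978, 5252 and 4859 at day 7, and 6951, 8302 and 8595 at day 20. C1qc, the C chain, had 5390, 5836 and 4770 CPM at day 0, 3120, 3537 and 3637 at day 7, and 4988, 6115 and 5929 at day 20. Both followed C1qa in leaving the day 7 libraries below all others. With the counts as deposited this separation was lost: C1qa ran from 5678 to 7974 CPM at day 7 and from 7825 to 8446 at day 0, and the C1q sum from 16101 to 23648 at day 7 and from 22163 to 23875 at day 0.

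**Figure D1:**
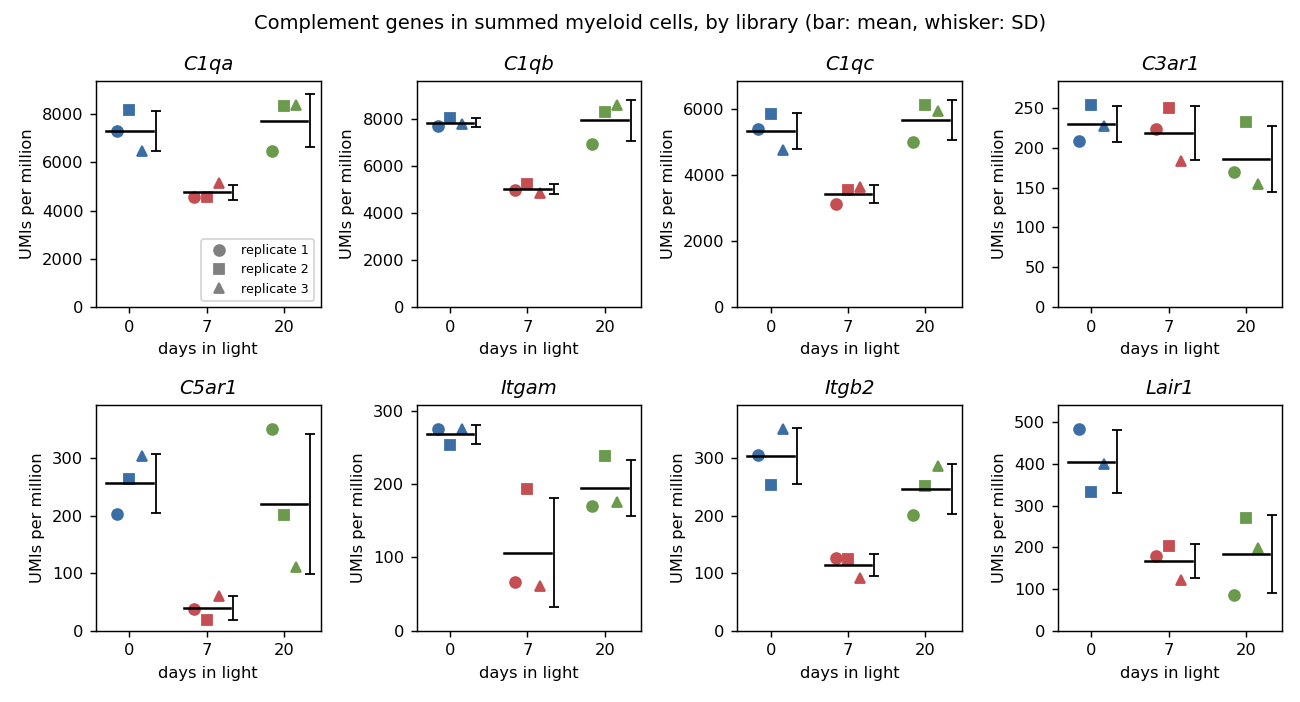
Level of 6 complement members and of Itgb2 and Lair1 in CPM (vertical axis, from 0) against days in light (horizontal axis). Each point is 1 library (circle, square and triangle for replicates 1, 2 and 3), bars are means and whiskers SD of 3 libraries. The C1q chains, C5ar1 and Itgb2 have their 3 lowest points at day 7, while C3ar1 overlaps between days.

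The sum of the chains was 20494 ± 1525 CPM (SD, n = 3) at day 0, 13221 ± 490 at day 7 and 21358 ± 2553 at day 20. Day 7 differed from day 0 by -7273 CPM and did not overlap it, but 3 libraries against 3 cannot go below p = 0.1 in an exact permutation test, and this was the p found. Days 7 and 20 together differed from day 0 by -3205 CPM (two-sided exact permutation test, p = 0.321), and day 20 from day 0 by 864 CPM (p = 0.6). On TMM-scaled library sizes the means were 19658, 14454 and 20383 CPM. In the fit over 1483 genes the chains had log2 fold changes of -0.46 ± 0.24 (SE) for C1qa, -0.49 ± 0.23 for C1qb and -0.48 ± 0.23 for C1qc from day 0 to day 7, with adjusted p of 0.199, 0.166 and 0.178 (edgeR quasi-likelihood test). None of the 3 passed the threshold in any comparison between days. Without the Müller-led cluster the day 7 libraries spread from 12911 to 24958 CPM, with a mean of 17218. Only the highest of them reached the day 0 levels (20409 to 22282), and the mean at day 20 was 25047. The log2 fold change of C1qa from day 0 to day 7 was then -0.10. The difference in the sum between both lit days and day 0 was -246 CPM in this setting. Day 7 replicate 3 had the highest Müller list level of the 9 libraries (4737 CPM; the others 398 to 4188) and 14 of its 26 cells in that cluster; the part of this in the C1q values was not tested.

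Per cell, the median C1q level was 20.3 per 1000 UMIs at day 0 (218 cells), 11.6 at day 7 (260 cells) and 20.4 at day 20 (158 cells). The 3 library medians were 19.6, 20.7 and 22.3 at day 0, 12.3, 11.2 and 9.28 at day 7, and 17.0, 21.4 and 22.0 at day 20. The quartiles were 14.6 and 30.0 at day 0, 6.75 and 18.5 at day 7, and 11.5 and 28.2 at day 20, so the cells of the 3 days overlapped widely.

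**Figure D2:**
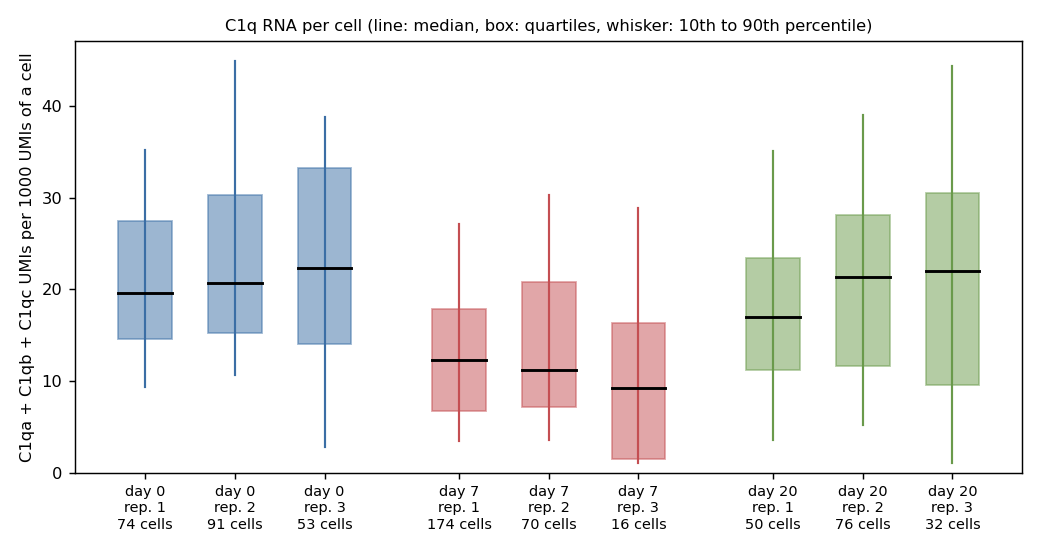
C1qa, C1qb and C1qc UMIs per 1000 UMIs of a cell (vertical axis, from 0) in each library (horizontal axis, with the number of cells of at least 500 UMIs). Lines are medians, boxes quartiles and whiskers the 10th to 90th percentiles; the day 7 medians lie between 9.28 and 12.3, below the 17.0 to 22.3 of the other libraries.

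The balance of the chains did not differ beyond the spread between libraries. C1qa made up 35.6% ± 1.5 (SD, n = 3) of C1q UMIs at day 0, 36.0% ± 1.7 at day 7 and 36.1% ± 0.8 at day 20, and days 7 and 20 differed from day 0 by 0.486 percentage points (exact permutation p = 0.607). C1qb took 38.4%, 38.1% and 37.3% and C1qc 26.0%, 25.9% and 26.6% at the same days. Over the 9 libraries, the 5 genes whose log2 CPM was most like that of C1qa, among 1482 others, included C1qc (Pearson r = 0.976), C1qb (0.916), Scamp2 (0.895) and Ly86 (0.894). For C1qb they were Ly86 (0.954), Naaa, Itgb2, C1qc and Bin2, and for C1qc they included C1qa, Ly86, C1qb and Ctss. These correlations share library depth and the day of each library, and are descriptions.

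C5ar1, the receptor for C5a that draws and activates myeloid cells, was the member with a called change between days (chromosome 7, 16246743 to 16259540, minus strand). Its CPM was 202, 263 and 303 at day 0, 38.4, 19.3 and 61.1 at day 7, and 350, 201 and 110 at day 20. Every day 7 library lay below every library of the other days, while days 0 and 20 overlapped. In UMIs these were 118 at day 0, 15 at day 7 and 70 at day 20. C5ar1 fell from day 0 to day 7 by 2.66 ± 0.50 on the log2 scale (edgeR, adjusted p = 0.00357) and its change from day 7 to day 20 was 2.46 ± 0.51 (adjusted p = 0.0437). It did not pass the threshold between days 0 and 20 (-0.20 ± 0.40, adjusted p = 0.865), and over both lit days its log2 fold change from day 0 was -1.43 ± 0.37 (adjusted p = 0.0219).

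C5ar1 was the 1 member of 6 tested that was called (adjusted p under 0.05) from day 0 to day 7, where 15.6% of 1483 genes were called and 10.5% were called lower. It was again the 1 member called from day 7 to day 20 (0.877% of genes, 0.742% higher), and over both lit days against day 0 (12.1% of genes, 9.51% lower). No member was called from day 0 to day 20 (1.28% of genes) by edgeR, by DESeq2 or at an unadjusted p under 0.05. C3, with 7 UMIs, was too low to be tested. The fall to day 7 kept its call without any 1 of the 9 libraries (adjusted p 0.00275 to 0.0390), but the rise to day 20 lost it without any 1 of the 3 day 0 libraries, day 7 replicates 1 and 2 or day 20 replicates 1 and 2 (adjusted p up to 0.290). The fits that lost the rise called 0 to 12 of 1697 to 2283 genes for it, and 0 without day 7 replicate 1 or 2. The call over both lit days was lost without any 1 of the 3 day 0 libraries, day 7 replicates 1 and 2 or day 20 replicate 2 (up to 0.115). Those fits called 77 to 149 of 1697 to 2264 genes over both lit days. With the counts as deposited, C5ar1 was 244 to 272 CPM at day 0, 97.3 to 206 at day 7 and 207 to 309 at day 20, the log2 fold change to day 7 was -0.69 (adjusted p = 0.114), and none of these calls held.

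**Figure D3:**
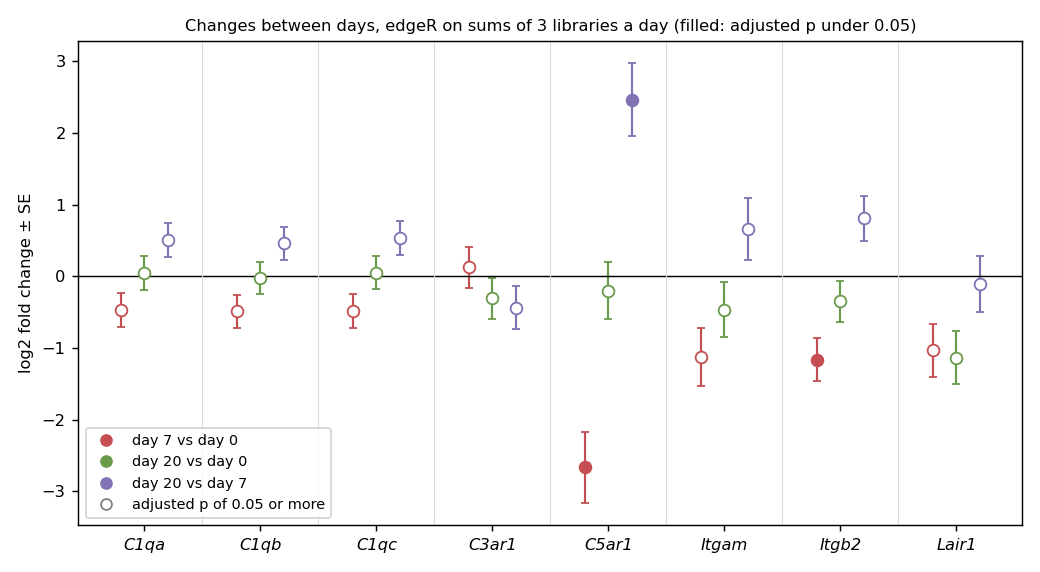
Log2 fold change with its SE (vertical axis) of 6 members and of Itgb2 and Lair1 (horizontal axis) for day 7 against day 0, day 20 against day 0 and day 20 against day 7, from 3 libraries a day. Filled points have an adjusted p under 0.05; these are C5ar1 in both comparisons with day 7, and Itgb2 for day 7 against day 0.

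Cells with C5ar1 RNA numbered 89 of 777 (11.5%, exact 95% binomial interval 9.30% to 13.9%, counting error only), and the highest count in a cell was 13. Thinned to 500 UMIs per cell, so that depth was equal, the share of cells with a UMI was 8.49% ± 4.58 (SD, n = 3) at day 0, 2.19% ± 1.51 at day 7 and 4.63% ± 1.36 at day 20. The rod-led cells had 1.83%, and day 7 replicate 2 was below that, at 0.499%. Of the 74 rod-led cells 64 came from day 0, with all 3 of their C5ar1 UMIs, and 6 from day 7, so this background is mostly that of day 0. Unthinned, the shares were 20.0%, 5.29% and 9.82%, against 4.05% in the rod-led cells, with median depths of 912 UMIs in retained and 1154 in rod-led cells.

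C3ar1, the receptor for C3a (chromosome 6, 122847138 to 122856161, minus strand), showed no called change. Its CPM was 208, 254 and 228 at day 0, 224, 251 and 183 at day 7, and 170, 233 and 154 at day 20, and the days overlapped. The log2 fold change from day 0 was 0.13 ± 0.28 at day 7 (adjusted p = 0.80) and -0.31 ± 0.29 at day 20 (adjusted p = 0.729). The genes most like C3ar1 over the 9 libraries were Spi1 (r = 0.901), the myeloid transcription factor PU.1, then Lmo2, Lilrb4a, Eif1 and Ftl1. None of these is among those most like the C1q chains.

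Itgam encodes CD11b, the surface protein on which the cells were sorted, so each cell had already passed a gate on its protein. Its RNA stood at 275, 254 and 275 CPM at day 0, 66.4, 193 and 61.1 at day 7, and 170, 239 and 176 at day 20. All 6 lit libraries were below all day 0 libraries, but not in every setting. The highest day 20 library reached 268 CPM without the Müller-led cluster (day 0, 257 to 293). It reached 236 CPM with all barcodes past quality control (day 0, 202 to 244) and 251 with at least 500 detected genes (day 0, 220 to 275). The change to day 7 was -1.12 ± 0.41 on the log2 scale (adjusted p = 0.0845) and to day 20 was -0.46 ± 0.39 (adjusted p = 0.700), so neither was called. The call changed with the cells used: without day 7 replicate 2 the change was -1.81 (adjusted p = 0.0305), and with cells of at least 1% glial, neuronal or lens UMIs left out it was -1.15 (adjusted p = 0.0420), a setting in which 341 of 1408 genes were called. Itgam lies at chromosome 7, 128062640 to 128118491, on the plus strand, where another gene (128062683 to 128128160) overlaps it on the same strand. The files give that gene the symbol Itgam too; its 2 UMIs were not added, and the split of reads between them is uncertain.

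Shares of cells with a UMI, thinned to 500 UMIs per cell, separated day 0 from the lit days for Itgam and C1qc. For Itgam the 3 libraries of day 0 had 14.6%, 12.2% and 16.4%, against 3.50%, 7.93% and 3.19% at day 7, and 4.98%, 8.22% and 9.29% at day 20, with 0.605% in the rod-led cells. The C1qc share was 88.6%, 89.1% and 82.9% at day 0, 71.1%, 68.7% and 57.3% at day 7, and 70.3%, 80.8% and 70.4% at day 20, against 22.6% in the rod-led cells. In both genes all 6 lit libraries lay below all 3 day 0 libraries, by 8.22 points for Itgam and 17.1 points for C1qc, each with p = 0.0119, the smallest that 84 splits can give (two-sided exact permutation test; 7 shares were tested). In the same exact permutation test the other shares differed by -5.08 points for C5ar1 (p = 0.0357), -8.69 for C1qa (p = 0.0952), -10.9 for C1qb (p = 0.155), 0.946 for C3ar1 (p = 0.607) and 0.152 for C3 (p = 0.583). Thinned to 1000 UMIs, which leaves fewer cells, the difference was 11.9 points for Itgam and 7.34 points for C1qc, in the same direction, and neither passed adjustment over the 7 shares. For Itgam all 6 lit libraries still lay below day 0. A single share at the smallest p cannot pass this adjustment (exact permutation test, adjusted p = 0.0833). Unthinned, the C1qc share overlapped, with 88.5% in day 20 replicate 2 and 87.4% in day 0 replicate 1 (a difference of -11.3 points over all libraries), while Itgam and C5ar1 differed by -18.5 and -12.4 points and both passed adjustment over the 7 shares. As deposited, the differences were -3.96 points for Itgam and -5.87 for C1qc, and neither passed adjustment. Without the Müller-led cluster they were -8.09 and -12.9 points, each with an adjusted p of 0.222 in the exact permutation test. That cluster held 14 of the 26 cells of day 7 replicate 3 and 26 of the 40 of day 20 replicate 3. In replicates 1 to 3 of day 0 it held 0, 3 and 6 cells. How many of all genes have shares of cells that separate day 0 from the lit days was not counted.

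**Figure D4:**
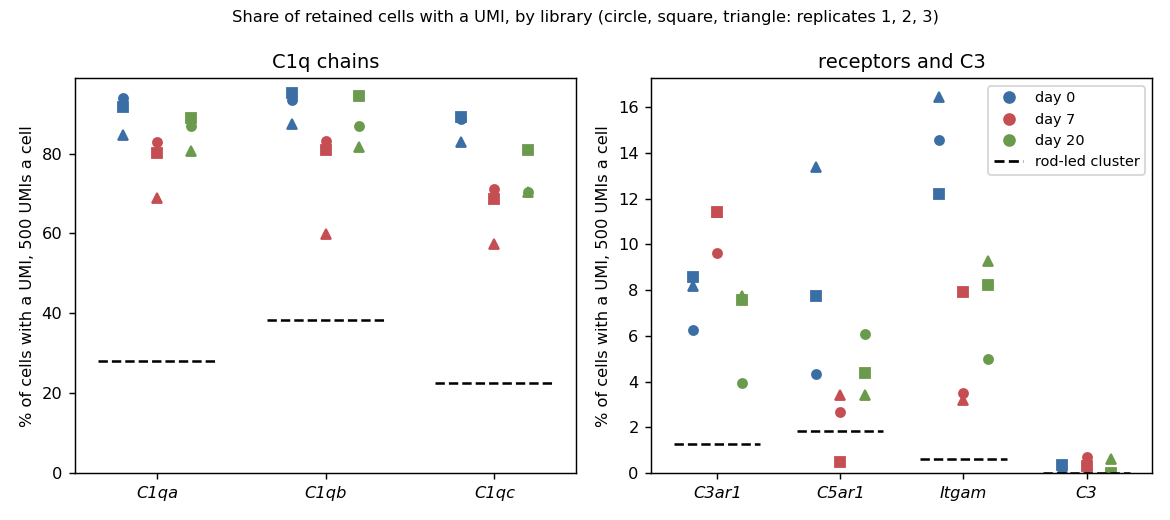
Share of cells with a UMI of each member in percent, at 500 UMIs per cell (vertical axes, from 0), by gene (horizontal axes). Each point is 1 library, coloured by day, and the dashed line is the share in the 74 rod-led cells, 61 of them with at least 500 UMIs. The C1q shares stand above the dashed lines in all 9 libraries, and C5ar1 at day 7 lies around its line.

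C3, which encodes the central protein of the cascade (chromosome 17, 57203970 to 57228136, minus strand), was barely detected. It had 7 UMIs in 6 of 777 cells (0.772%, exact interval 0.284% to 1.67%), 1 at day 0, 5 at day 7 and 1 at day 20. The gene was at 0 in 5 of the 9 libraries, where a count of 0 allows levels of up to 18.4 to 91.7 CPM. At this depth a difference between days was not detectable.

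The wider complement list held 41 genes, of which 40 were in the files, 19 had a UMI in retained cells and 7 had 50 or more. Of 4 that could be tested, 1 was called lower by edgeR from day 0 to day 7 (Itgb2; 10.5% of all genes) and 1 over both lit days (Lair1; 9.51% of all genes), and DESeq2 called 0 in any comparison between days. Between days 0 and 20 edgeR called 0, with 1 at an unadjusted p under 0.05 (Lair1, adjusted p = 0.173), and between days 7 and 20 it called 0, with 2 (Calr and Itgb2). The proteases of the C1 complex, C1r and C1s, had 1 UMI between them, and Masp1, Masp2, the terminal components Hc and C6 to C9, and the regulators Cfi and Cd55 had none. The median log2 fold change from day 0 to day 7 was -0.65 over the 4 wider genes and -0.48 over the 6 members, beside 0.02 over all genes.

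Itgb2, the CD18 partner of Itgam, was at 306, 254 and 351 CPM at day 0, 126, 125 and 91.7 at day 7, and 202, 251 and 287 at day 20. It fell to day 7 by 1.16 ± 0.30 on the log2 scale (adjusted p = 0.0224), a call lost in 9 of 19 alternatives, among them the counts as deposited (-0.36, adjusted p = 0.245), DESeq2 (adjusted p = 0.0598) and the omission of day 0 replicates 1 or 3, day 7 replicates 1 or 2 or day 20 replicate 1 (up to 0.134). Lair1, an inhibitory receptor that binds collagen and C1q, was at 483, 333 and 398 CPM at day 0, 178, 202 and 122 at day 7, and 84.9, 270 and 198 at day 20. All 6 lit libraries were below day 0, and over both lit days its log2 fold change was -1.08 ± 0.30 (adjusted p = 0.0360), a call lost in 14 of 19 alternatives, among them the counts as deposited (-0.33, adjusted p = 0.249) and the omission of any 1 library other than day 20 replicate 2. Lrp1, C1qbp and Cr1l had 91, 81 and 65 UMIs in all and were not tested. Calr, a chaperone and C1q-binding protein, was at 152 to 244 CPM at day 0, 92 to 199 at day 7 and 212 to 397 at day 20 and was not called, and Clu, a fluid-phase inhibitor of the terminal complex, ranged from 12.2 to 2750 CPM without a call; its highest value was in day 7 replicate 3, where the Müller list was also highest.

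C4b and Cfb were seen in the lit retinas only at low counts. C4b, of the classical pathway, had UMI counts of 0, 4 and 18 at days 0, 7 and 20. Its pooled day 20 level was 60.3 CPM (95% counting interval 35.7 to 95.2). That was 9.44-fold a limit of 3 counts over the day 0 libraries (6.38 CPM), without the counting error of day 20. Cfb, factor B of the alternative pathway, had counts of 0, 14 and 1. Its pooled day 7 level was 33.1 CPM (18.1 to 55.6), which was 5.19-fold the same limit, again without counting error. Both were chosen after these counts were seen, so the folds are descriptions and not tests. Both were below the filter on low counts, and 3' tags of C4b may include reads of its near-identical copy C4a, which is not in the gene list. Vtn, a listed regulator also not tested in the main fit, went the other way, with 36, 11 and 1 UMIs at days 0, 7 and 20. It was called with all barcodes past quality control (12 to 183 of 2103 genes called in a comparison). That setting puts back the 74 rod-led cells, 64 of them from day 0. In replicates 1 to 3 of day 0, Vtn was at 85.6, 19.9 and 171 CPM and the rod list at 7714, 1591 and 9645. The part of rod RNA in the Vtn values was not tested. With no filter on low counts, C4b, Cfb, Clu and Vtn were each called between some days (54 to 226 of 13802 genes).

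Cells with at least 2 UMIs of MHC class II genes made up 9.47% to 12.9% of the day 0 libraries, 53.9% to 80.7% at day 7 and 37.5% to 52.7% at day 20, shares that depend on the depth of a cell. Where these genes had to hold at least 0.5% of a cell's UMIs, the shares were 1.05% to 4.84%, 19.5% to 36.6% and 19.8% to 28.4%. The members were compared between cells with at least 2 UMIs of Cd74, H2-Aa, H2-Ab1 and H2-Eb1 and cells with none, in the 5 libraries with 10 cells of each. Those were replicate 2 of days 0 and 7 and all libraries of day 20. These 4 genes summed to 655 to 1840 CPM at day 0, 9955 to 26190 at day 7 and 5927 to 12511 at day 20. The positive cells were deeper, with library medians of 835 to 2434 UMIs against 454 to 938. No member was called by edgeR or DESeq2, where 5.43% of 368 genes were: C1qa was at 0.22 ± 0.20 and C1qb at 0.21 ± 0.19 on the log2 scale, and C1qc was at 0.43 ± 0.17 (unadjusted p = 0.0237, adjusted p = 0.198). The direction of C1qc turned at the 0.5% cut (-0.43) and as deposited (-0.16). The 0.5% cut also compared other libraries, replicates 1 and 2 of days 7 and 20, with none of day 0. The other 4 members were too low to be tested.

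Within cells that lacked these MHC class II transcripts, C1qc stood at -0.85 ± 0.26 on the log2 scale in both lit days against day 0 (adjusted p = 0.0631), C1qa at -0.50 ± 0.27 and C1qb at -0.56 ± 0.29. None was called by edgeR, where 8.31% of 638 genes were, and day 7 was represented by 1 library with 13 such cells. Whether C1qc was called depended on the setting, with 1 library of day 7 in each. It gained a call with DESeq2 (-0.77), without the Müller-led cluster (-0.82) and without day 20 replicate 3 (-0.92). The median log2 fold change over all genes was -0.21 in the main fit and -0.035, -0.38 and -0.51 in these. Pooled over libraries, C5ar1 in the MHC class II positive cells had 47 UMIs in 29 cells at day 0 (448 CPM), 14 in 225 cells at day 7 (37.5 CPM) and 60 in 97 cells at day 20 (281 CPM). In the negative cells it had 32 UMIs in 191 cells, 0 in 25 and 2 in 66. The low day 7 level was also seen among the cells with at least 2 UMIs, and was not tested within them. The day 0 positive cells were deep, with library medians of 2888, 2434 and 1277 UMIs. At the 0.5% cut, positive cells of day 0 numbered 1, 5 and 3 in replicates 1 to 3, with 0 C5ar1 UMIs in each library. By library, C5ar1 UMIs in these positive cells were 4, 1 and 0 at day 7 and 3, 0 and 0 at day 20. The day 0 positive cells at that cut held 1262, 5620 and 1519 UMIs of all genes in replicates 1 to 3. A count of 0 in so few UMIs cannot tell their level from the 202 to 303 CPM of the whole day 0 libraries. With negative cells defined by the 0.5% cut instead, the member called for both lit days was C5ar1, where 158 of 1511 genes were.

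C5ar1 also varied with immediate-early RNA, the transcripts that rise within minutes of a stimulus. A list of 8 such genes (Fos, Fosb, Jun, Junb, Jund, Egr1, Atf3, Ier2), chosen after the C5ar1 values were seen, summed to 26685 to 33666 CPM in the day 0 libraries, 2091 to 6968 at day 7 and 7361 to 18093 at day 20. Within each library, cells of at least 500 UMIs were divided at the median share of these genes. C5ar1 was higher above the median in 8 of 9 libraries, with 175 UMIs above and 27 below it, and with median levels of 265 and 103 CPM over the libraries. The exception was day 7 replicate 3, with 0 UMIs above and 2 below. Counts above and below were also low in day 7 replicates 1 (7 and 4) and 2 (2 and 0) and in day 20 replicate 3 (4 and 1). At day 7 the order therefore rests on few UMIs. The sum of the C1q chains went the other way, lower above the median in 8 of 9 libraries (median levels 16825 and 22108 CPM), while Itgam was higher above it in 4 of 9 and C3ar1 in 6 of 9. Cells above the median were also deeper in 8 of the 9 libraries, and the part of immediate-early RNA in the change of C5ar1 between days was not tested.

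**Figure D5:**
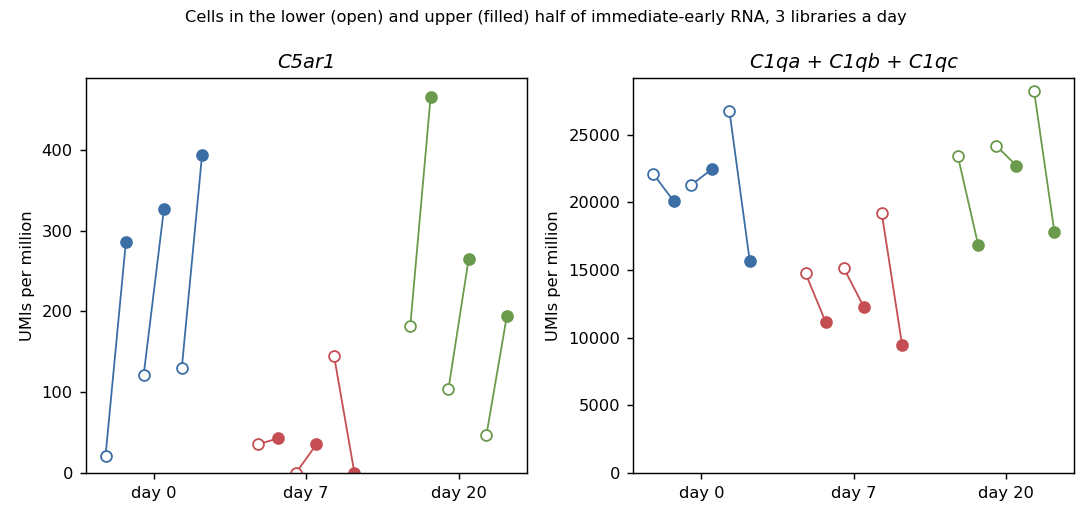
Level of C5ar1 (left) and of the summed C1q chains (right) in CPM (vertical axes, from 0) in cells below (open) and above (filled) the median share of immediate-early RNA of their library, 3 libraries a day along the horizontal axis. C5ar1 rises from open to filled in 8 of 9 libraries and C1q falls in 8 of 9.

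The receptors were found in overlapping sets of cells. Of 777 cells, 512 (65.9%) had no UMI of C3ar1, C5ar1 or Itgam, 181 had 1 of the genes, 57 had 2 and 27 had all 3. Among cells of at least 500 UMIs, those with a receptor UMI were deeper, with median totals of 2066 UMIs for C3ar1, 2421 for C5ar1 and 1871 for Itgam against 975, 987 and 996 in cells without, so these shares depend on depth. The median C1q level per 1000 UMIs in cells with and without a C5ar1 UMI was 22.3 and 19.7 at day 0 (51 and 167 cells), 16.2 and 11.5 at day 7 (15 and 245), and 24.4 and 18.9 at day 20 (22 and 136). With and without an Itgam UMI it was 21.9 and 19.7 at day 0 (78 and 140 cells), 15.8 and 11.1 at day 7 (27 and 233), and 26.4 and 18.0 at day 20 (27 and 131). For C3ar1 the order at day 0 was the other way, at 19.5 with and 20.7 without a UMI (54 and 164 cells). The levels were 15.5 and 11.1 at day 7 (56 and 204), and 24.3 and 18.8 at day 20 (25 and 133). A cell without a receptor UMI is not shown to lack the receptor at this depth.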

How the data were processed

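Retinal CD45+ CD11b+ cells were profiled with 10x 3' v2 libraries, 3 for each of days 0, 7 and 20. The authors deposited raw UMI counts per gene and cell barcode; the submitters' processing notes name Cell Ranger (version not given in the sources used here) and mm10. Each barcode was kept in the library with its highest UMI total. Barcodes with at least 200 genes and under 10% mitochondrial UMIs were clustered (Seurat 5.3.0, R 4.3.3), and clusters with at least 3 listed non-myeloid genes among their 10 leading genes were left out. Doublets were not called. Counts were summed per library and tested with edgeR 4.0.16 (quasi-likelihood, TMM, Benjamini-Hochberg, threshold 0.05) in 1 fit over all days; DESeq2 1.42.0 was an alternative. The edgeR fit was tested on simulated data, and DESeq2 was not. Single values were compared by two-sided exact permutation tests. Intervals cover counting error only. Named were all members, wider-list genes with at least 50 UMIs or a called change, and the 5 genes most like each member with a mean of at least 200 CPM. C4b, Cfb, Vtn and the immediate-early list were chosen after values were seen. The members and lists were chosen with earlier results of these data known. Some genes are not reported here.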

Additional observations from a re-analysis of the deposited data

How the results depend on the processing

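With the counts as deposited, 0 members were called in each comparison between days. There 0 of 2726 genes were called for day 20 against day 0 or day 7, 68 for day 7 against day 0 and 62 for both lit days. Between MHC class II classes 1 member was called (C3ar1), where 106 of 708 genes were. As deposited, 0 wider genes and 0 shares passed. For both lit days against day 0, 0 members were called with all barcodes past quality control (156 of 2103 genes were). The same held with at least 500 detected genes (123 of 1259) and with no filter on low counts (199 of 13802). Over all genes, leaving out 1 library gave 98 to 417 calls for day 7 against day 0. It gave 0 to 57 for day 20 against day 7 and 77 to 291 for both lit days. Leaving out 1 library gave 1 to 2 members for day 7 against day 0, 0 to 1 for day 20 against day 7, 0 to 1 for both lit days, 0 to 1 within MHC class II negative cells, and 0 to 2 of the wider genes. Of those, 2 were called in any comparison, 4 with no filter, 0 with DESeq2, and 1 with all barcodes, with at least 500 genes and without the Müller-led cluster. Leaving out cells with glial, neuronal or lens UMIs, chosen after seeing the data as was leaving out the Müller-led cluster, gave 2 members for day 7 against day 0, with 341 of 1408 genes called. Within MHC class II negative cells C1qc gained a call in each of these settings and with DESeq2, with 1 library of day 7 in each. It was at -0.91 without glial, neuronal or lens UMIs, -0.82 without the Müller-led cluster and -0.77 with DESeq2. Medians over all genes were -0.26, -0.38 and -0.035 there. With a class cut at 0.5% of UMIs the member called was C5ar1, where 158 of 1511 genes were called. Of the 7 shares, 2 passed adjustment over the 7, and 0 did so with all barcodes, with at least 500 genes, without the Müller-led cluster, at 1000 UMIs, or without any 1 library (0 to 0), where the smallest p is 0.0179 or 0.0357. At those p-values 2 shares alone cannot pass adjustment over the 7. The causes were not tested. The difference in the C1q sum between both lit days and day 0 (-3205 CPM) was negative under every alternative run but shrank to -246 without the Müller-led cluster, -489 with all barcodes and -1311 as deposited.

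The replicate numbers were not taken to pair the libraries, since not every same-numbered pair had a correlation over 0.1: correlations of deviations were -0.132 to 0.316 (median 0.123) for same-numbered and -0.397 to 0.324 (median -0.123) for other pairs, and 5 of 9 libraries correlated best with their own number. With the replicate block, 0 members were called for day 20 against day 7 (C5ar1 2.51, edgeR adjusted p = 0.0638), where 12 of 1483 genes were. Within MHC class II negative cells, with 1 library of day 7, C1qc gained a call with the block. It was at -0.93 there, beside a median of -0.21 over all genes.

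Reversed directions were all of values that had not been called. The difference in chain share was -0.553 points for C1qa as deposited, and without 1 library it ran from -0.296 to 1.21 for C1qa, -1.73 to 0.459 for C1qb and -0.163 to 0.618 for C1qc. Shares of cells reversed to 3.37 points for C1qa with all barcodes, and for C3ar1 to -3.36 at 1000 UMIs and -5.66 unthinned. The log2 changes that reversed as deposited were C1qb 0.051, C3ar1 0.033 and C5ar1 0.015 (day 20 against day 0), C1qc 0.017 and C3ar1 0.093 (both lit days), C1qa -0.11, C1qb -0.18 and C1qc -0.16 (MHC class II classes), and C1qb 0.0016 and C1qc 0.025 (negative cells). With all barcodes they were C1qb 0.25 and C5ar1 0.075 (day 20 against day 0), and C1qa 0.034, C1qc 0.032 and C3ar1 0.17 (both lit days). With at least 500 genes they were C3ar1 -0.22 (day 7 against day 0), C5ar1 0.22 (day 20 against day 0) and C3ar1 0.13 (day 20 against day 7). Without the Müller-led cluster they were C3ar1 -0.023 (day 7 against day 0), C1qb 0.13 and C5ar1 0.20 (day 20 against day 0), Lair1 0.14 (day 20 against day 7) and C1qa 0.024 (both lit days), and without glial, neuronal or lens UMIs C1qb was 0.11. At the class cut C1qb was -9.86e-05 and C1qc -0.43. Without 1 library, day 20 against day 0 ran from -0.000118 to 0.21 for C1qa, -0.077 to 0.12 for C1qb and -0.58 to 0.14 for C5ar1, day 20 against day 7 from -0.54 to 0.32 for Lair1, and both lit days from -0.19 to 0.0063 for C3ar1.

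The MHC class II comparisons with at least 500 genes could not be fitted, and leaving out day 7 replicate 2 left no day 7 library for the negative cells. Depth limits C3, C4b, Cfb and every value of day 7 replicate 3.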
